A study of Mus musculus with 24 samples.

Results

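The genes described here encode sarcomeric actins, troponin subunits and slow myosin light chains. They were taken by gene symbol, 10 of the 36172 gene models in the deposited tables: the actins Acta1 and Actc1, the fast troponins Tnni2, Tnnt3 and Tnnc2, the slow troponins Tnni1, Tnnt1 and Tnnc1, and the light chains Myl2 and Myl3. All 10 passed the filter on low counts, and the lowest count of any of them in a library was 228, for Tnni1.

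Actin polymerises into the thin filament of the sarcomere. The troponin complex sits on that filament and switches contraction on with calcium: the C subunit (Tnnc) binds calcium, the I subunit (Tnni) holds the filament off, and the T subunit (Tnnt) ties the complex to tropomyosin. Fast and slow fibres use different genes for each subunit, and the slow C subunit and the light chains Myl2 and Myl3 are shared with the heart. Acta1 is the actin of adult skeletal muscle, whereas Actc1 is the main actin of the heart and of developing skeletal muscle.

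RNA was sequenced from the gastrocnemius, a calf muscle made mostly of fast fibres, of C57BL/6 mice, in 24 libraries that form 6 groups of 4. Every animal carried floxed Notch2 alleles (Notch2f/f). Notch2-mKO mice (Mlc1fCre/+;Notch2f/f) also carried Cre recombinase at the Mlc1f locus. That locus is used by muscle fibres and not by the other cells of the muscle. WT mice were Notch2f/f without Cre. Each genotype was sampled after 7 days of hindlimb suspension (unloading), 14 days after streptozotocin at 150 mg per kg (diabetes, through loss of insulin-producing cells), and as controls. Streptozotocin diabetes and unloading both waste muscle, and the series title concerns the effect of Notch2 loss on that wasting. The labels do not say that the 4 libraries of a group came from separate animals, so each p-value refers to the spread among these libraries, which may be technical.

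Depth ranged between 33112459 and 56369917 estimated counts per library, and 3 counts equal 0.0906 CPM (counts scaled by TMM to a common library total) in the shallowest. The biological coefficient of variation was 20% over 13048 tested genes. Whole-muscle Notch2 was 1.29 to 1.58 CPM in Notch2-mKO unloading, 1.15 to 2.16 in Notch2-mKO diabetes and 1.25 to 2.55 in Notch2-mKO controls, and 1.34 to 2.02, 1.74 to 3.18 and 1.76 to 1.92 in the same conditions of WT. It overlapped between genotypes in every condition (adjusted p = 0.696, 0.878 and 0.993, edgeR), so its level does not check the genotype labels.

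All 7 skeletal fibre markers were present in every group. They include Acta1, a member of the 10, and Myh4 and Mylpf, which are set beside the 10 below. The heart markers Nppa, Nppb, Myl7 and Tnni3 were at or near 0, none above 0.287 CPM. Myh6 lay between 0.515 and 3.68 CPM over the WT libraries of unloading and control. The summed level of 4 tendon markers was 47.4 to 80.8 CPM in Notch2-mKO unloading, 59.9 to 79.1 in Notch2-mKO diabetes and 149 to 237 in Notch2-mKO controls. In WT muscle it was 38.1 to 94.8 CPM in unloading, 45.6 to 90.4 in diabetes and 152 to 212 in controls. The summed level of 5 smooth muscle markers, with Acta2 at 0, was 28.6 to 32.8 CPM in Notch2-mKO unloading and 30.4 to 45.6 in Notch2-mKO controls, and 23.3 to 30.7 in WT unloading and 32.9 to 38.4 in WT controls. That of 4 fat markers overlapped between all groups. Base composition moved with treatment too. The mean log2 level of 1010 genes under 42% GC minus that of 2124 genes over 56% GC was 0.03 ± 0.23 (SD, n = 4) in Notch2-mKO unloading, 0.14 ± 0.15 in Notch2-mKO diabetes and -0.32 ± 0.28 in Notch2-mKO controls, against 0.43 ± 0.08, 0.38 ± 0.15 and -0.66 ± 0.36 in the same conditions of WT. The transcripts of the 10 genes have 50.3 to 57.0% GC. The part of the tendon and smooth muscle markers in the results was not tested, and values after removal of each library's GC and gene length trends, which were removed together, are given where they end a call. For the gene lists that check was added after seeing the data. In whole muscle, fewer fibres of a type and less RNA per fibre cannot be told apart.

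Promoter sequences are shown for the 3 genes that were called lower under unloading in both genotypes, a choice made after their values were seen. RefSeq (GRCm38.p6) gave windows of 250 bases before the annotated start for 8 of the 10 genes, and none for Tnni2 and Tnnt3. The CArG box, the sequence bound by serum response factor (Srf), was found in the windows of Acta1, Actc1 and Myl3 and in no window of Tnni1, Tnnt1, Tnnc1, Tnnc2 or Myl2. Over all 32851 windows, 1.47% held it. It is in capitals below, 73 bases before the start in Acta1, 47 in Actc1 and 85 in Myl3. The windows are at chr8:123894776-123895025 (minus strand) for Acta1, chr2:114052876-114053125 (minus strand) for Actc1 and chr9:110763428-110763677 (plus strand) for Myl3.
Acta1: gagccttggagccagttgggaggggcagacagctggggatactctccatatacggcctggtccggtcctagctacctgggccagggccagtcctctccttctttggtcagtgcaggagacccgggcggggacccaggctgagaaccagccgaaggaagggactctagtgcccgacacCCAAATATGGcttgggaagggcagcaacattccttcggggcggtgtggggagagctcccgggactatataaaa
Actc1: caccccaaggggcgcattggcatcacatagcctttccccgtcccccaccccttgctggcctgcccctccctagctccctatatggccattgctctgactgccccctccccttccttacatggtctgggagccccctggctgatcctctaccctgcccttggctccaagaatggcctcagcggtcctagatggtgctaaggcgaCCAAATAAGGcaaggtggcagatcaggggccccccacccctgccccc
Myl3: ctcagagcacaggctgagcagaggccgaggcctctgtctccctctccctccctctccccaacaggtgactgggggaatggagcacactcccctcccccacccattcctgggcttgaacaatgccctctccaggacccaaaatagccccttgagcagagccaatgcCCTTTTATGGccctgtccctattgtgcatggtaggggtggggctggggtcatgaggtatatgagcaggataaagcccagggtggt

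A match of letters is a description and not a site of binding. The motif CANNTG, read by Myod1 and related factors, was in the windows of 7 of the 8 genes, all but Actc1, and in 66.2% of all windows, that is most of them. CATTCC on either strand, read by Tead factors, occurred in the windows of Acta1, Tnnc1 and Myl3 and in 12.6% of all windows. The MEF2 box occurred in no member window and in 2.92% of all windows. Each search covered both strands, and no match in a member overlapped another.

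The actins are close copies, so the stretch that opens both coding sequences is shown to let their reads be compared. The coding sequences, each of 1131 bases in the GENCODE annotation of the same build, are identical at 86.3% of bases, and the longest run without a difference is 29 bases. Of the first 90 bases 14 differ, in capitals below. Acta1 lies on chromosome 8 (123891758 to 123894775) and Actc1 on chromosome 2 (114047282 to 114052875).
Acta1: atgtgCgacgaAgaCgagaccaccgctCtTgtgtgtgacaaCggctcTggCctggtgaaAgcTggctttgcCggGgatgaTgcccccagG
Actc1: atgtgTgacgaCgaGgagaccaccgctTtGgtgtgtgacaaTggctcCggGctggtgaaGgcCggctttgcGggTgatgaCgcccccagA

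How the authors' counting treated reads that fit both actins is not given in the sources used here, so the level of Actc1 beside a far more abundant Acta1 is uncertain to that extent. The part of shared reads in its values was not tested. The other paralogs are less alike: 69.3% of bases for Tnnc1 and Tnnc2, 66.2% for Tnni1 and Tnni2, 65.2% for Tnnt1 and Tnnt3, and 45.4% for Myl2 and Myl3. Tnni2 and Tnnt3 lie 54.4 kb apart on chromosome 7.

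The 10 genes together made up 8.27 ± 0.37% of the counts in Notch2-mKO unloading, 9.37 ± 0.35% in Notch2-mKO diabetes and 10.7 ± 0.20% in Notch2-mKO controls (SD, n = 4 each). In WT muscle they made up 7.91 ± 0.51% in unloading, 8.87 ± 0.91% in diabetes and 10.9 ± 0.37% in controls. Acta1 alone made up 2.69 to 3.47% in Notch2-mKO unloading against 4.84 to 5.31% in its controls. In WT it made up 2.72 to 3.41% in unloading against 4.99 to 5.92% in controls. The share of Tnnt3 overlapped, at 2.76 to 3.15% in Notch2-mKO unloading against 3.07 to 3.13% in its controls. In WT it was 2.77 to 2.97% against 2.86 to 3.26%. In control muscle the fast genes stood far above the slow ones. Per kilobase of the longest coding transcript (GENCODE M21), mean levels in Notch2-mKO and WT controls were 36773 and 40525 CPM for Acta1, 29827 and 29344 for Tnnt3, 19039 and 18180 for Tnnc2, and 14212 and 14910 for Tnni2. On the same per-kilobase scale the slow genes ran down from Myl3 (431 and 417) through Myl2 (208 and 191), Tnnt1 (129 and 125) and Tnnc1 (106 and 114) to Tnni1 (50.6 and 45.5), with Actc1 at 362 and 793. In controls of at least 1 genotype the ranges across libraries overlapped between Actc1 and Myl3, Myl2 and Tnnt1, and Tnnt1 and Tnnc1. So did those of Tnnc1 and Tnni1, and of Tnnc2 and Tnni2. Such ranges leave out that the genes share libraries, so they do not settle the order of these neighbours. In each control library the counts of Myl2 were above those of Tnnt1 (log2 ratio 0.28 to 0.72 in Notch2-mKO and 0.21 to 0.68 in WT). The per-kilobase order of the other pairs within a library is not given here.

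**Figure D1:**
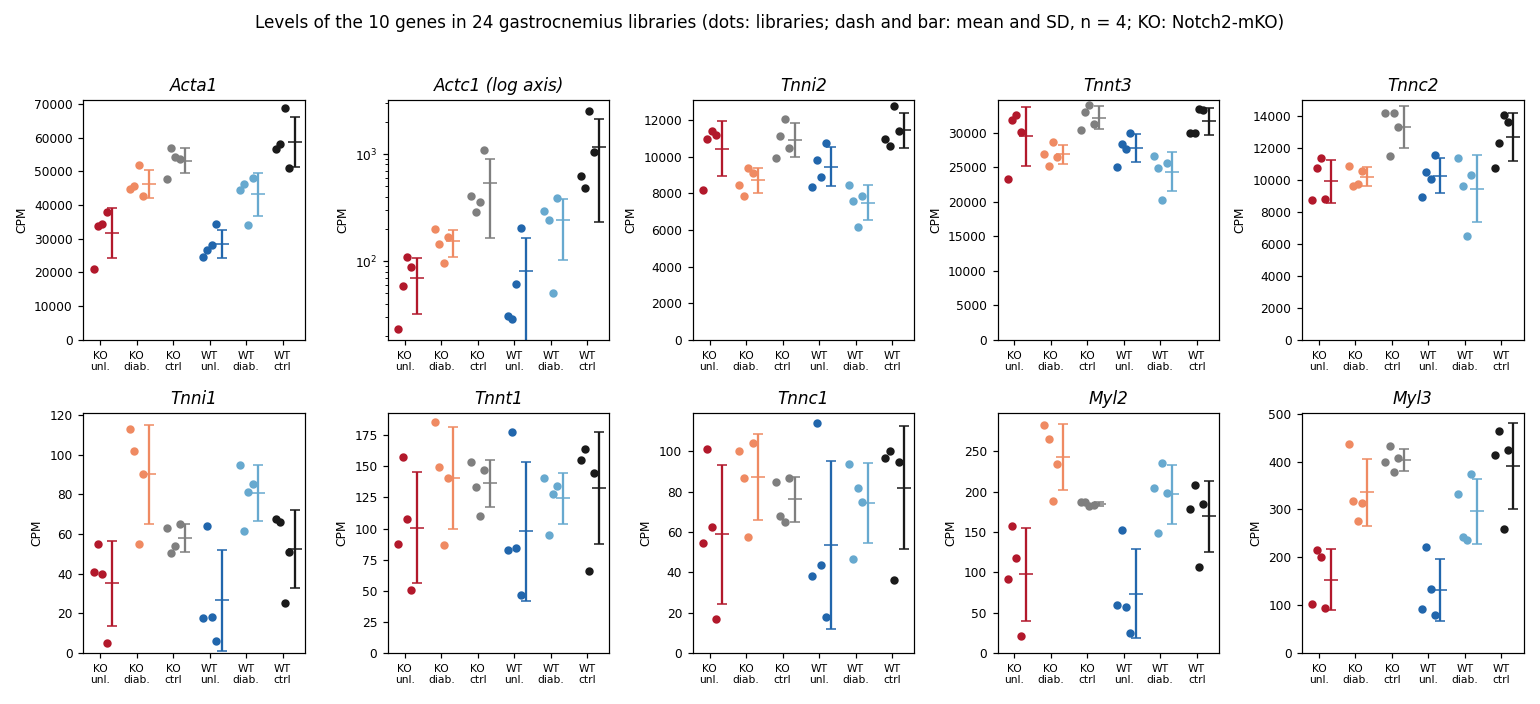
Level (CPM) of each gene in the 24 libraries by group, with dots for libraries and a dash and bar for the mean and SD of 4; the Actc1 axis is logarithmic, where a lower bar that reaches past 0 is not drawn to its end. Acta1, Actc1 and Myl3 in unloaded muscle sit below the controls of the same genotype with no overlap, whereas Tnni1, Tnnt1 and Tnnc1 overlap.

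Counts of calls set the frame for what follows. A gene was called at an adjusted p (edgeR quasi-likelihood F test, Benjamini-Hochberg over the 13048 genes) below 0.05, and each adjusted p is from this fit unless another is named. Under unloading in Notch2-mKO, 3 of the 10 genes fell and 0 rose, where 7.31% of all genes were called, 4.11% up and 3.2% down. Under unloading in WT, 4 of the 10 fell and 0 rose, where 34.7% of all genes were called, 18.4% up and 16.3% down. Under diabetes in Notch2-mKO, 0 of the 10 were called by edgeR, where 5.59% of all genes were called, 3.05% up and 2.54% down. DESeq2 also called 0 of the 10 there. At an unadjusted p below 0.05 (edgeR) were 4 of the 10, beside 2878 of the 13048 genes. Under diabetes in WT, 5 of the 10 fell and 0 rose, where 33.4% of all genes were called, 17.8% up and 15.5% down. The median log2 fold change of the 10 genes was -0.58 under unloading in Notch2-mKO against 0.02 over all genes, and -0.80 against -0.02 in WT. Under diabetes it was -0.23 against -0.01 in Notch2-mKO and -0.39 against -0.01 in WT. Within a genotype the treatment comparisons share their controls. With limma on the authors' log2 values Acta1 and Myl3 in WT unloading and Tnni2 in WT diabetes stayed called, and Tnni2 and Tnnt3 in Notch2-mKO diabetes were called. The other calls, those of Actc1 and all of Notch2-mKO unloading among them, were lost there with their direction unchanged.

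**Figure D2:**
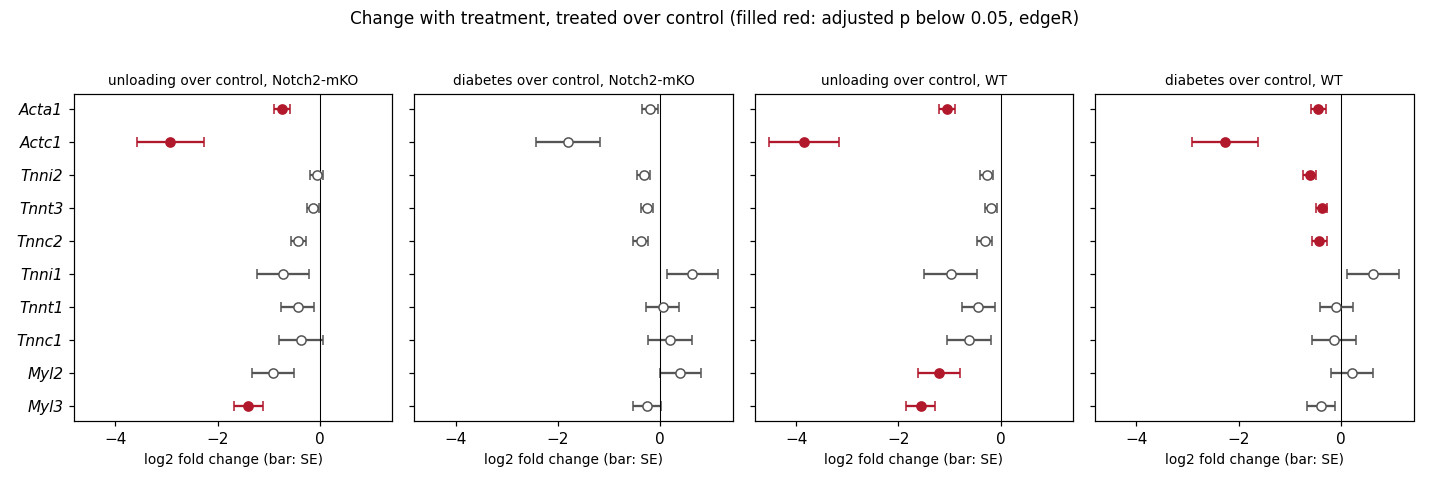
Log2 fold change of each gene, treated over control, with its SE, in 4 comparisons; filled red points were called by edgeR. Actc1 has the lowest value in every panel, between -3.84 and -1.80, and the fast troponins (Tnni2, Tnnt3, Tnnc2) were called under diabetes in WT, each between -0.61 and -0.38.

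Acta1, the bulk actin of the muscle, fell under unloading in both genotypes. It had 21053, 33742, 34421 and 37790 CPM in the 4 libraries of Notch2-mKO unloading, against 47855, 56929, 54128 and 53780 in Notch2-mKO controls. Every unloaded library was below every control, and the log2 fold change was -0.74 (SE 0.16, adjusted p = 0.00782, edgeR). In WT unloading it had 24622, 26514, 28013 and 34342 CPM, against 56556, 57998, 68743 and 51102 in WT controls. The groups again did not overlap, with a log2 fold change of -1.05 (SE 0.16, adjusted p = 2.38e-05), a level 0.484 times that of the controls. Of the members this was the smallest adjusted p in unloaded WT muscle. In a fit of the compared groups alone the call in Notch2-mKO was lost (adjusted p = 0.0624).

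Actc1, far less abundant than Acta1, fell further. It had 23.3, 58.2, 111 and 88.9 CPM in Notch2-mKO unloading, against 410, 288, 355 and 1081 in Notch2-mKO controls. All unloaded libraries were below all controls, and the control of replicate 4 stood far above the other 3. The log2 fold change was -2.92 (SE 0.66, adjusted p = 0.011, edgeR). In WT unloading it had 30.9, 29.0, 60.9 and 206 CPM, against 624, 479, 2528 and 1042 in WT controls. The groups did not overlap although levels within each spread over 7.09 and 5.28 times, and the log2 fold change was -3.84 (SE 0.69, adjusted p = 0.000144), 0.0698 times the control level. Removal of the GC and length trends left -2.90 and -3.58 and both calls. The size rested in part on single libraries: it was -2.33 (adjusted p = 0.0445) without Notch2-mKO control replicate 4, -3.14 without WT control replicate 3 and -4.86 without WT unloading replicate 4.

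Under diabetes both actins fell in WT, and neither was called in Notch2-mKO. Actc1 had 201, 145, 96.8 and 169 CPM in Notch2-mKO diabetes, below all 4 Notch2-mKO controls, with a log2 fold change of -1.80 that was not called (SE 0.63, adjusted p = 0.0897, edgeR). It was called there in a fit of those groups alone (adjusted p = 0.00564), and was at -1.19 without Notch2-mKO control replicate 4. In WT diabetes it had 292, 243, 51.0 and 385 CPM, below all 4 WT controls, and replicate 3 was the lowest by a wide margin. The log2 fold change was -2.27 (SE 0.64, adjusted p = 0.00835), and without WT control replicate 3 it was -1.56 (adjusted p = 0.0665). Acta1 had 44642, 45597, 51972 and 42622 CPM in Notch2-mKO diabetes, which overlapped the controls (log2 fold change -0.20, SE 0.16, adjusted p = 0.471). In WT diabetes it had 44360, 46360, 33982 and 48128 CPM, all below the WT controls, with a log2 fold change of -0.44 (SE 0.16, adjusted p = 0.0319). That call was lost without WT control replicate 1, 2 or 3 or WT diabetes replicate 3, each in turn, and with the GC and length trends removed (log2 fold change -0.07).

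All 3 fast troponins fell under diabetes in WT, and edgeR over all 24 libraries called none of them in another treatment comparison. Under unloading none of the 3 was called in either genotype by edgeR, with log2 fold changes of -0.06 for Tnni2, -0.13 for Tnnt3 and -0.42 for Tnnc2 (adjusted p = 0.0673) in Notch2-mKO. In WT these were -0.27 (adjusted p = 0.0876), -0.19 and -0.31 (adjusted p = 0.0966). With the GC and length trends removed the 3 WT values turned to 0.13, 0.10 and 0.06. At an unadjusted p below 0.05 were Tnnc2 in Notch2-mKO, and Tnni2 and Tnnc2 in WT. DESeq2 called Tnnc2 in Notch2-mKO (adjusted p = 0.0319), and upper quartile scaling called Tnni2 in WT (adjusted p = 0.0450).

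Tnni2, the inhibitory subunit of fast fibres, had 8474, 7860, 9389 and 9113 CPM in Notch2-mKO diabetes, against 9965, 11144, 12083 and 10466 in Notch2-mKO controls. No library overlapped, but the log2 fold change of -0.33 was not called (SE 0.12, adjusted p = 0.117, edgeR). It had 8445, 7584, 6148 and 7843 CPM in WT diabetes, against 10997, 10601, 12774 and 11431 in WT controls, also without overlap. The log2 fold change was -0.61 (SE 0.12, adjusted p = 0.000606), the smallest adjusted p of the 10 genes in diabetic WT muscle. Tnnt3, the tropomyosin-binding subunit, had 26629, 24927, 20230 and 25578 CPM in WT diabetes, against 30033, 29899, 33376 and 33342 in WT controls. Its groups did not overlap and the log2 fold change was -0.38 (SE 0.12, adjusted p = 0.0138). In Notch2-mKO it changed by -0.26 (SE 0.12, adjusted p = 0.181), with every diabetic library below every control. Tnnc2, the calcium sensor, changed by -0.43 in WT (SE 0.14, adjusted p = 0.0245), where WT diabetes replicate 1 at 11423 CPM overlapped the controls. In Notch2-mKO diabetes it had 9668 to 10901 CPM, against 11493 to 14243 in controls, a log2 fold change of -0.38 that was not called (SE 0.14, adjusted p = 0.112).

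These 3 WT calls were lost when the GC and length trends were removed together. Tnni2 was then at -0.15, Tnnt3 at -0.05 and Tnnc2 at -9.7e-05. Without WT diabetes replicate 3 the calls of Tnnt3 (adjusted p = 0.0555) and Tnnc2 (adjusted p = 0.107) were lost, and Tnnc2 was also lost without WT control replicate 3 or 4 and in the fit of the 2 groups alone (adjusted p = 0.0806). In Notch2-mKO a fit of the compared groups alone called all 3 (adjusted p = 0.0196 for Tnni2, 0.0244 for Tnnt3 and 0.00889 for Tnnc2), with fold changes of nearly the same size.

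Myl3, the essential light chain of slow fibres, was the slow gene that fell under unloading in both genotypes. It had 102, 216, 201 and 94.8 CPM in Notch2-mKO unloading, against 399, 433, 378 and 407 in Notch2-mKO controls. In WT unloading it had 91.7, 223, 133 and 80.5 CPM, against 414, 464, 260 and 424 in WT controls. Neither pair of groups overlapped. The log2 fold change was -1.40 in Notch2-mKO (SE 0.28, adjusted p = 0.00622) and -1.56 in WT (SE 0.28, adjusted p = 0.000145, edgeR), and both calls held with the GC and length trends removed (-1.31 and -1.23). Under diabetes Myl3 changed by -0.27 in Notch2-mKO and -0.40 in WT, neither called.

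Myl2, the regulatory light chain of slow fibres, had 92.0, 158, 118 and 21.7 CPM in Notch2-mKO unloading, against 187, 187, 182 and 184 in Notch2-mKO controls. The unloaded libraries spread over 7.26 times and the controls over 1.03 times, without overlap, and the log2 fold change of -0.92 was not called (SE 0.41, adjusted p = 0.158, edgeR). In WT unloading it had 59.9, 153, 56.8 and 25.0 CPM, against 179, 208, 106 and 185 in WT controls, and WT unloading replicate 2 lay above WT control replicate 3. The log2 fold change was -1.20 (SE 0.41, adjusted p = 0.0249). That call was lost without WT control replicate 1 or 2 or WT unloading replicate 1, 3 or 4, each in turn, and with the GC and length trends removed (adjusted p = 0.0667). Without WT unloading replicate 2 it stayed called, at -1.84. In diabetes Myl2 had 282, 266, 189 and 234 CPM in Notch2-mKO, all above the Notch2-mKO controls, and 204, 148, 236 and 198 CPM in WT, which overlapped WT controls. The log2 fold changes of 0.39 in Notch2-mKO and 0.21 in WT were not called (adjusted p = 0.605 and 0.719, edgeR), and the Notch2-mKO rise was called in a fit of the compared groups alone (adjusted p = 0.0364).

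The slow troponins were called in no treatment comparison by edgeR over all 24 libraries, or by DESeq2, and none had an unadjusted p below 0.05. Tnni1, their inhibitory subunit, had 40.9, 54.8, 39.9 and 4.88 CPM in Notch2-mKO unloading, against 63.2, 50.4, 54.1 and 65.1 in Notch2-mKO controls. In WT unloading it had 17.8, 64.1, 17.96 and 6.18 CPM, against 67.7, 65.8, 25.2 and 50.7 in WT controls. Levels spread over 11.2 and 10.4 times in the unloaded groups of Notch2-mKO and WT, and both overlapped their controls. The log2 fold changes were -0.73 (SE 0.51, adjusted p = 0.393) and -0.98 (SE 0.51, adjusted p = 0.142, edgeR). Tnnt1 changed by -0.44 in both genotypes (SE 0.33), and Tnnc1 by -0.37 in Notch2-mKO and -0.62 in WT (SE 0.43 each). These values moved in both directions with the library left out. In WT Tnni1 ranged from -1.90 to -0.65, Tnnc1 from -1.30 to -0.33 and Tnnt1 from -0.89 to -0.20. In Notch2-mKO the ranges were -1.04 to -0.37, -0.78 to -0.07 and -0.75 to -0.22, in the same order. The lowest WT values were those without WT unloading replicate 2. In that fit Tnni1 (adjusted p = 0.00518), Tnnc1 (adjusted p = 0.0198) and Tnnt1 (adjusted p = 0.0363) were called, and 7 of the 10 genes fell. The share of all genes called there is not given here. No other omission called a slow troponin under unloading.

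Under diabetes Tnni1 had 113, 102, 55.0 and 90.2 CPM in Notch2-mKO and 95.1, 61.4, 81.3 and 85.5 CPM in WT. Its log2 fold changes, 0.63 in both genotypes (SE 0.51 each), were not called (adjusted p = 0.494 and 0.364, edgeR). In a fit of the compared groups alone the Notch2-mKO rise was called (adjusted p = 0.0342). Tnnt1 was at 0.04 in Notch2-mKO and -0.09 in WT, and Tnnc1 at 0.19 and -0.14, none called, and the sign of Tnnt1 and of the WT value of Tnnc1 turned under other settings.

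Myosin heavy chains were read beside these genes. Myh7, the slow heavy chain, had 403 ± 197 CPM in Notch2-mKO unloading against 450 ± 74.6 in Notch2-mKO controls, and 371 ± 223 in WT unloading against 437 ± 160 in WT controls (SD, n = 4 each), and was not called (log2 fold changes -0.16 and -0.24). Myh2, the heavy chain of fast oxidative fibres, had 978 ± 318 CPM against 2777 ± 329 in Notch2-mKO and 806 ± 252 against 2519 ± 341 in WT, and fell by 1.51 (adjusted p = 0.000376) and 1.64 (adjusted p = 5.05e-06, edgeR) on the log2 scale. Myh4, the heavy chain of the fastest fibres, was called in neither treatment of either genotype, with values between -0.30 and -0.20.

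Ratios within a library do not depend on how libraries are scaled, and they are given as descriptions. The log2 ratio of Actc1 to Acta1 averaged -9.00 (range -9.82 to -8.28) in Notch2-mKO unloading against -6.85 (-7.63 to -5.64) in Notch2-mKO controls, and -8.93 (-9.84 to -7.38) in WT unloading against -5.95 (-6.92 to -4.76) in WT controls. The ranges did not overlap in either genotype, so Actc1 was lower relative to Acta1. Under diabetes this ratio was apart as well, -9.07 to -7.80 in Notch2-mKO diabetes against -7.63 to -5.64 in its controls, and -9.38 to -6.96 in WT diabetes against -6.92 to -4.76 in WT controls. The log2 ratio of Tnni1 to Tnni2 averaged -6.64 in Notch2-mKO diabetes (-7.42 to -6.23) against -7.56 in its controls (-7.80 to -7.30), and -6.55 in WT diabetes (-6.95 to -6.24) against -7.87 in WT controls (-8.98 to -7.33). The WT ranges were apart, and those of Notch2-mKO overlapped. Tnnt1 to Tnnt3 overlapped between diabetes and control in both genotypes (WT -8.04 to -7.31 against -8.98 to -7.51), as did Tnnc1 to Tnnc2 (WT -7.68 to -6.32 against -8.60 to -6.80). Under unloading these 3 troponin ratios overlapped their controls in both genotypes. Myl2 to Mylpf, the fast regulatory light chain, averaged -5.45 (-5.72 to -5.23) in Notch2-mKO diabetes against -6.38 (-6.49 to -6.30) in its controls, and -5.70 (-6.08 to -5.00) against -6.67 (-7.61 to -6.22) in WT, apart in both, and it overlapped under unloading in both. Myl3 to Myl1, the fast essential light chain, was apart under unloading in Notch2-mKO (-6.52 to -5.23 against -4.85 to -4.40 in its controls) and overlapped in WT. Under diabetes it was apart in WT (-4.88 to -3.84 against -5.93 to -4.90 in WT controls) and overlapped in Notch2-mKO. Myl1 itself had 10407 ± 957 CPM in Notch2-mKO controls and 14534 ± 1481 in WT controls (SD, n = 4 each), without overlap. Its log2 fold change of -0.48 between genotypes was not called (adjusted p = 0.893, edgeR). Mlc1f, the locus that carries Cre in Notch2-mKO mice, is another name of Myl1. The part of the Cre allele in the Myl1 difference was not tested, nor was the part of that difference in the Myl3 to Myl1 ratio.

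A further 4 ratios, of slow genes to Tnnt1, were chosen after their values were seen. Myl3 to Tnnt1 averaged 0.62 (0.23 to 0.91) in Notch2-mKO unloading against 1.58 (1.37 to 1.78) in its controls, and 0.48 (0.15 to 0.79) in WT unloading against 1.61 (1.42 to 1.98) in WT controls on the log2 scale. Myl2 to Tnnt1 was also lower without overlap, -1.21 to 0.13 in Notch2-mKO unloading against 0.28 to 0.72 in its controls, and -0.90 to -0.22 in WT unloading against 0.21 to 0.68 in WT controls. Both light chain ratios overlapped their controls under diabetes. Tnnc1 to Tnnt1 overlapped its controls under both treatments in both genotypes, and Tnni1 to Tnnt1 did so under unloading. Tnni1 to Tnnt1 averaged -0.64 (-0.71 to -0.55) in Notch2-mKO diabetes against -1.22 (-1.40 to -1.03) in its controls, and -0.62 (-0.65 to -0.57) in WT diabetes against -1.35 (-1.51 to -1.19) in WT controls. All 8 diabetic libraries were above all 8 controls in this ratio, although neither gene was called.

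**Figure D3:**
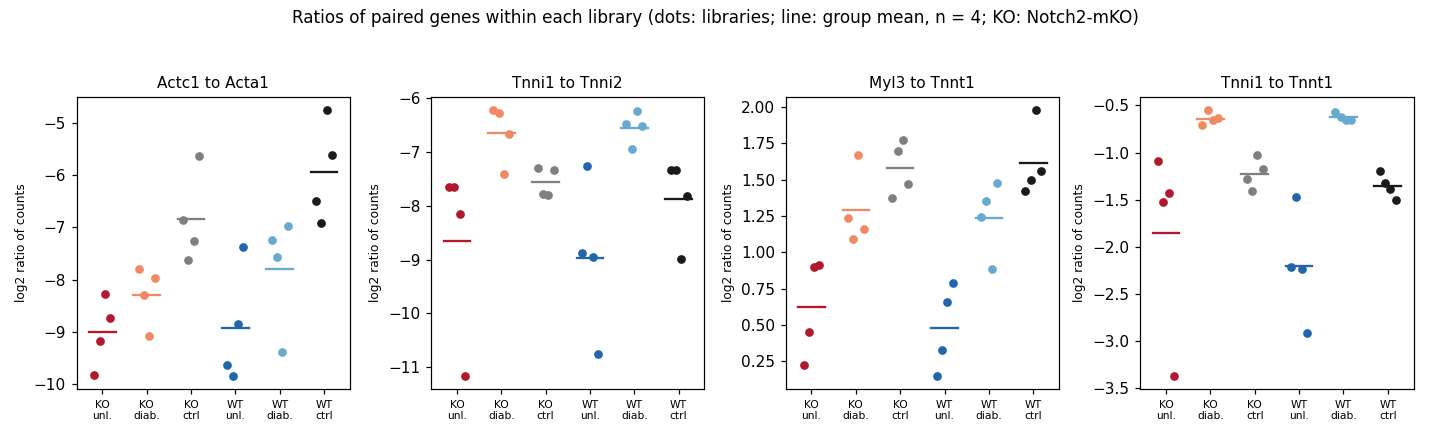
Log2 ratio of counts of 2 genes in each library, by group, with dots for libraries and a line for the mean of 4. Myl3 to Tnnt1 is lower in unloaded than in control muscle without overlap, and Tnni1 to Tnnt1 is higher in diabetic muscle, between -0.71 and -0.55, than in any control.

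Genotypes were compared within each condition. In controls, unloading and diabetes alike, 0 of the 10 differed between Notch2-mKO and WT by edgeR, DESeq2 also called 0 of them, 0 had an unadjusted p below 0.05, and 0.0% of all genes were called by edgeR. Over all genes 695 in controls, 1345 in unloading and 692 in diabetes had an unadjusted p below 0.05, and DESeq2 called 3, 5 and 0. The largest difference was that of Actc1 in controls, with 533 ± 368 CPM in Notch2-mKO and 1168 ± 937 in WT (SD, n = 4 each) and a log2 fold change of -1.13 (SE 0.62, adjusted p = 0.893). Of the responses themselves, Notch2-mKO minus WT, 0 of the 10 were called for unloading or diabetes by edgeR or DESeq2, 0 had an unadjusted p below 0.05, and 0.0% of all genes were called by edgeR. Over all genes 1875 for unloading and 1142 for diabetes had an unadjusted p below 0.05, and DESeq2 called 128 and 1. For unloading the difference was 0.30 for Acta1 (SE 0.22, adjusted p = 0.568) and 0.92 for Actc1 (SE 0.87, adjusted p = 0.685). For diabetes it was 0.28 for Tnni2 (SE 0.18, adjusted p = 0.659). The calls present in WT and missing in Notch2-mKO are thus not shown to differ between genotypes, and the standard errors leave room for differences of the size seen.

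Within groups the slow genes moved as a block from library to library. Taken as deviations of log2 CPM from the group mean over the 24 libraries, the 10 pairs among Tnni1, Tnnt1, Tnnc1, Myl2 and Myl3 had Pearson r between 0.78 and 0.98 (Spearman rho 0.69 to 0.92), and the 3 pairs of fast troponins between 0.68 and 0.94 (rho 0.68 to 0.92). The 4 slow genes other than Myl3 were the closest, with 0.98 for Tnni1 and Myl2. Actc1 did not join them: its r was -0.46 with Myl2, -0.43 with Tnni1, -0.42 with Tnnc1, -0.37 with Tnnt1 and -0.08 with Myl3, but 0.71 with Tnnc2, 0.69 with Acta1 and 0.66 with Tnni2 and Tnnt3. These are descriptions over points that share a library, its scaling factor and its base composition. All 5 slow genes were low in WT control replicate 3, WT unloading replicate 4 and Notch2-mKO unloading replicate 4, and high in WT unloading replicate 2. Actc1 lay on the other side of its group mean in all 4, but this did not hold in every library. In Notch2-mKO diabetes replicate 3 all 5 slow genes were the lowest of their group, and so was Actc1 (deviation -0.61).

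**Figure D4:**
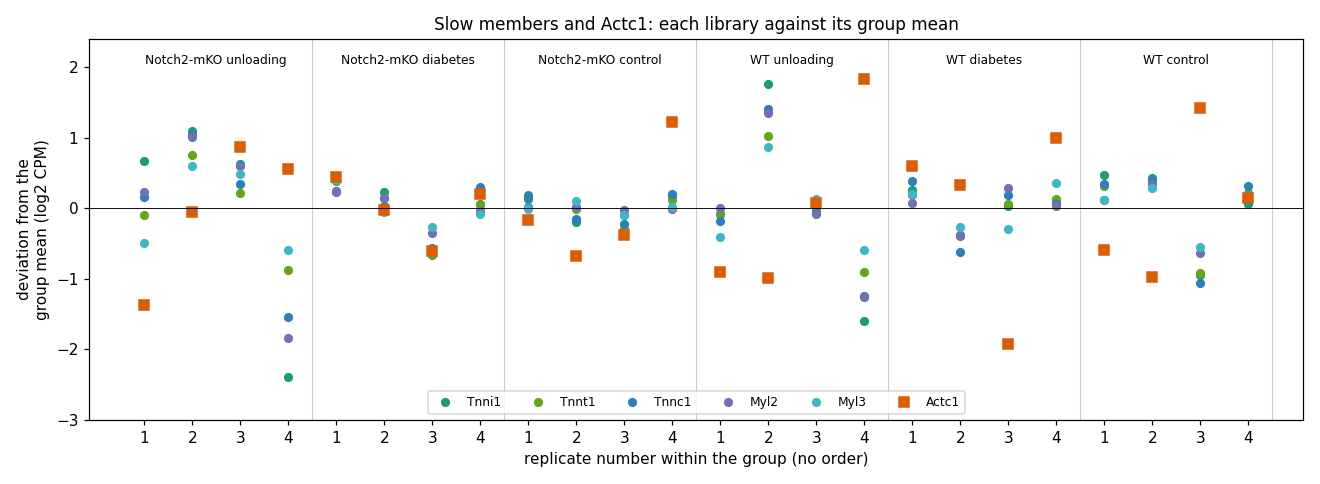
Deviation of log2 CPM from the group mean for the 5 slow genes (circles) and Actc1 (squares), by library in 6 groups; replicate numbers carry no order. All 5 slow genes are above 0 in replicate 2 of both unloading groups and below 0 in replicate 4. Actc1 lies on the other side in WT control replicate 3 and in replicate 4 of both unloading groups. In Notch2-mKO diabetes replicate 3 Actc1 and the slow genes are all below 0.

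Of 9434 other genes, those most like the mean deviation of the 5 slow genes were Myh7 (r 0.96), Tpm3 (0.95), the slow-fibre tropomyosin, Atp2a2 (0.91), the slow calcium pump, Myh2 (0.78) and Slx4 (0.75). Those most like Actc1 were Sod2 (r 0.84), the mitochondrial superoxide dismutase, Myl1 (0.84), the fast essential light chain, Nap1l4, Itm2a and Rap1gap2 (0.83 each). Each r is over 24 libraries and carries no test.

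Lists of related genes place the 10 in their pathway. The shares of all genes called were 7.31% in Notch2-mKO and 34.7% in WT under unloading, and 5.59% and 33.4% under diabetes. A count near these shares is not a result about a list. Of 12 fast fibre genes, 1 fell under unloading in Notch2-mKO (Myh2). In WT unloading 3 fell, led by Myh2 and Mylpf (-0.67), and Mylk2, a myosin light chain kinase, rose by 1.20; the call of Mylpf was lost with the GC and length trends removed. Under diabetes 1 fell in Notch2-mKO, Myh1 (-0.70), and 4 fell and 1 rose in WT, led by Myh1 (-0.90, adjusted p = 0.000338), Myl1 (-1.03) and Mylpf (-0.73), whose call was lost here too with the trends removed. Of the calls in WT, 2 of 4 under unloading and 3 of 5 under diabetes held with the trends removed. As a list they had medians of -0.16 and -0.21 for unloading in Notch2-mKO and WT, and -0.25 and -0.28 for diabetes (log2 fold change).

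Of 11 slow fibre genes outside the members, 0 were called by edgeR under unloading in either genotype, with medians of -0.14 in Notch2-mKO and -0.03 in WT. In Notch2-mKO 0 had an unadjusted p below 0.05 and DESeq2 called 0, and in WT these counts were 2 and 1. Under diabetes 1 rose and 1 fell in Notch2-mKO, and 2 rose and 1 fell in WT. Casq2, the calcium store of slow fibres, rose by 0.82 in Notch2-mKO (adjusted p = 0.0445) and 1.20 in WT (adjusted p = 0.000513), and Mb (myoglobin) fell by 0.83 and 1.28. Mybpc1, a myosin-binding protein of slow fibres, rose by 0.46 in WT. With the GC and length trends removed both Notch2-mKO calls and that of Mybpc1 were lost.

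Of 14 thin filament genes tested, 1 fell in Notch2-mKO unloading, Tpm2 (tropomyosin), by 0.54 (SE 0.14, adjusted p = 0.0219). In WT unloading 5 rose and 1 fell. Tpm2 fell by 1.03 (SE 0.14, adjusted p = 8.51e-06), Xirp2, an actin-binding repair protein, rose by 1.45, and Capza2, which caps the barbed end of actin, rose by 0.76. Under diabetes 1 rose in Notch2-mKO, Lmod2 (0.92, adjusted p = 0.0262), which nucleates actin filaments, and 6 rose and 2 fell in WT, led by Xirp2 (1.60), Lmod2 (1.25) and Tpm2 (-0.68). With the GC and length trends removed the calls of Tpm2, Xirp2 and Lmod2 held, and that of Capza2 was lost in WT under unloading (0.02) and diabetes (0.05). Cfl2, an actin-severing factor named after its values were seen, was among the WT rises (0.43 and 0.40) and was then called lower (-0.59 and -0.52). In all, 4 of 6 calls held in WT unloading and 4 of 8 in WT diabetes. Klhl40 and Klhl41 were listed at 0 under older symbols.

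Of the other actins, Actg1, a cytoplasmic actin, had 63.9 ± 13.4 CPM in Notch2-mKO unloading, 63.2 ± 6.21 in Notch2-mKO diabetes and 98.5 ± 23.0 in Notch2-mKO controls, and 54.3 ± 10.9, 71.5 ± 8.85 and 121 ± 15.0 in the same conditions of WT (SD, n = 4 each). It fell in all 4 treatment comparisons, by 0.63 and 1.16 for unloading and by 0.64 and 0.76 for diabetes in Notch2-mKO and WT on the log2 scale (adjusted p = 0.0247, 1.49e-05, 0.0263 and 0.0011). The call in Notch2-mKO diabetes was lost with the GC and length trends removed (adjusted p = 0.0642). Actb, its close relative, was called in none (-0.17 to 0.12). Acta2, the smooth muscle actin, was listed at 0 in all 24 libraries, where other smooth muscle markers were present.

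Of 5 developmental or cardiac sarcomere genes that passed the filter among 10, Myh3, the embryonic heavy chain, fell under unloading by 1.69 in Notch2-mKO (adjusted p = 0.0246) and 1.46 in WT (adjusted p = 0.0128). Under diabetes Myh3 rose by 1.51 (adjusted p = 0.0326) and 1.81 (adjusted p = 0.00155). Actc1, also a gene of developing muscle, did not share that pattern, as its values were lower in both treatments. Myl4, an embryonic light chain, rose in WT by 0.74 and 0.87 under unloading and diabetes, and Tnnt2, the cardiac T subunit, rose in unloaded WT muscle by 1.18.

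Of 19 regulators of sarcomere and fibre type genes, Srf, which binds the CArG box, fell under unloading by 0.41 in Notch2-mKO (SE 0.12, adjusted p = 0.0375) and by 0.85 in WT (SE 0.12, adjusted p = 1.1e-05). Under diabetes it fell by 0.70 in WT (adjusted p = 0.000122). In Notch2-mKO unloading Srf was the 1 call. In WT unloading 3 rose and 3 fell, with Mef2a (0.79) and Tbx15 (0.54) among the rises. In Notch2-mKO diabetes 1 fell, Tead4 (-0.92, adjusted p = 0.0185), and in WT diabetes 3 rose and 4 fell, led by Tead4 (-1.64), Srf and Myod1 (-1.27). Both WT counts, out of 19, were near the shares of all genes called, 34.7% under unloading and 33.4% under diabetes. With the GC and length trends removed Srf stayed called, at -0.32 in Notch2-mKO unloading, -0.40 in WT unloading and -0.29 in WT diabetes, and Mef2a was lost in WT unloading (0.27). In WT 2 of 6 calls held under unloading and 4 of 7 under diabetes. The bearing of these RNA levels on the 10 genes was not tested.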

How the data were processed

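The authors deposited 4 tables of 36172 gene models with estimated counts and, per the file headers, log2 values of their own. The build was mm10 per the submitters' processing notes, and neither the aligner nor the counting tool is named in the labels or headers. Between 26.4 and 34.6% of values above 0 were whole within 0.001, so counts were rounded. The 8 repeated control columns held identical values. Groups came from the sample titles. The main fit did not pair samples by replicate number. Of 28 same-numbered pairs, 6 had a correlation of deviations above 0.1 (range -0.184 to 0.326). Pairs with different numbers were not examined, so these values do not settle whether the numbers pair samples.

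All 24 libraries were fitted in edgeR 4.0.16 (R 4.3.3) with TMM scaling, the default low-count filter (13048 genes) and 1 coefficient per group, and contrasts were tested by the quasi-likelihood F test, which was tested on simulated data. Ratios used 0.5 added to counts. Alternatives were RLE and upper quartile scaling, no filter, DESeq2 1.42.0, the compared groups alone, a replicate block, removal of GC content and length trends (together) within libraries, limma 3.58.1 on the authors' log2 values, and leaving out each library.

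The 10 genes and the lists were chosen with earlier results of these data known. The text names all 10, the heavy chains Myh7, Myh2 and Myh4, up to 3 genes of a list with the smallest p, and the 5 genes most like Actc1 or the slow genes (mean of at least 2 CPM). Acta2, Cfl2 and the further ratios were named after their values were seen. Sequences came from RefSeq (GRCm38.p6) and GENCODE M21, matched by symbol.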

Additional observations from a re-analysis of the deposited data

Results flagged for a closer look

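In groups of 4 the highest or lowest library was set against the other 3 for each of the 10 genes, and 3 of 60 such groups held a library far from the rest; chance flags about 1 in 20. Actc1 was 1081 CPM in Notch2-mKO control replicate 4, against 288 to 410 in the other 3 libraries of that group. Tnni2 was 8205 CPM in Notch2-mKO unloading replicate 1, against 10995 to 11409 in the others. As a share of all counts, before TMM scaling, Tnni2 was 1.05% in that library, against 1.05, 1.10 and 1.02% in the others. On that scale the library did not stand apart. Tnnc1 was 36.3 CPM in WT control replicate 3, against 94.8 to 100.02 in the others.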

How the results depend on the processing

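Of the values of single genes and their alternatives, 580 kept direction and call, 30 lost a call, 14 gained a call and 16 turned in sign, each of the last without a call. The count of the 10 genes called moved by over 1.5 times from the main count as follows. With limma on the authors' log2 values it was 0 for unloading in Notch2-mKO, 2 for unloading in WT, 2 for diabetes in Notch2-mKO and 1 for diabetes in WT. With the GC and length trends removed it was 1 for diabetes in WT, and with the compared groups alone 6 for diabetes in Notch2-mKO. The cause was not tested. Smaller shifts were 2 (compared groups alone) and 4 (DESeq2) for unloading in Notch2-mKO, 3 (GC and length trends removed) and 5 (upper quartile) for unloading in WT, and 4 (compared groups alone) for diabetes in WT. Leaving out 1 library gave 3 to 4 (unloading) and 0 (diabetes) in Notch2-mKO, and 3 to 7 (unloading, 7 without WT unloading replicate 2) and 2 to 5 (diabetes, 2 without WT control replicate 3 or WT diabetes replicate 3) in WT. With a replicate block the counts were 3 and 0 in Notch2-mKO and 4 and 5 in WT, as without it. Over all genes, DESeq2 called 1455 and the compared groups alone 331 for unloading in Notch2-mKO, against 954, and 1142 and 1592 for diabetes in Notch2-mKO, against 730.

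The signs that turned were these. With the GC and length trends removed, unloading values were 0.063 for Tnni2 in Notch2-mKO and 0.13, 0.10 and 0.059 for Tnni2, Tnnt3 and Tnnc2 in WT, and diabetes values in WT were 0.24 for Tnnt1 and for Tnnc1. With limma, they were 0.062 for Tnni2 in Notch2-mKO unloading, 0.061 for Tnnt3 in WT unloading, and 0.25 for Tnnt1 and 0.19 for Tnnc1 in WT diabetes. Leaving out 1 library gave ranges of -0.12 to 0.033 for Tnni2 in Notch2-mKO unloading, -0.12 to 0.22 for Tnnt1 in Notch2-mKO diabetes, -0.31 to 0.033 for Tnnt1 in WT diabetes and -0.39 to 0.027 for Tnnc1 in WT diabetes. Counts of 228 or more per library do not limit the members; the spread of the slow genes and of Actc1 over 4 libraries does.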
